A study of Mus musculus with 18 samples.

Results

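The subject is the mitochondrial respiratory chain of the irradiated mouse heart: every gene whose symbol names a subunit of complexes I to V, whether it lies on the mitochondrial genome or in the nucleus. Members were chosen by symbol (the *Nduf*, *Sdh*, *Uqcr*, *Cox4* to *Cox8*, *Atp5* and mitochondrial *mt-Nd*, *mt-Co*, *mt-Cytb* and *mt-Atp* series), not by their response. The tables held 107 matching genes, and 96 of them reached 0.23 CPM (counts scaled to a common library size) in at least 6 mice, out of 15054 such genes among 30072. These were 45 genes of complex I, 4 of complex II, 9 of complex III, 19 of complex IV and 19 of complex V, and 13 of the 96 are encoded in the mitochondrial genome. The 11 genes below the filter had at most 3 counts in any mouse: 9 are processed pseudogenes, and the others are *Cox7b2* and *Cox8c*. None of the 11 reached 0.23 CPM in any mouse, whereas the lowest member kept, *Cox6b2*, reached it in 17 of 18 mice.

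RNA came from the cardiac intraventricular septum, as the labels name the tissue, of CD-1 mice (outbred in the study's methods, of mixed genetic background per the labels), and each library was 1 mouse. The study's methods describe ventricular tissue. Control mice were anesthetized with isoflurane and not irradiated (n = 6). The other mice received 25 Gy once under the same anesthesia (gamma irradiation in the labels, an X-ray irradiator in the study's methods), and tissue was taken 2 weeks post-irradiation (post-IR, n = 6) or 6 weeks post-IR (n = 6). All were adults of 8 weeks of age or more, males and females with littermates among the controls, and the labels give neither the sex nor the litter of a single mouse. The same 6 control mice serve both comparisons with control. The labels give no collection time for them, so a match in time or age to each irradiated group cannot be checked. In the study's methods, control and irradiated mice alike had CT imaging.

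Complexes I and II pass electrons from NADH and succinate to coenzyme Q, complex III passes them on to cytochrome c, and complex IV hands them to oxygen. Complexes I, III and IV pump protons across the inner membrane, and complex V, the ATP synthase, uses the return of those protons to make ATP. Heart muscle depends on this pathway for nearly all of its ATP and is packed with mitochondria, and all complexes except complex II are built from subunits of both genomes. Several complex IV subunits have a heart and muscle isoform (*Cox6a2*, *Cox7a1*, *Cox8b*) beside one found in most tissues (*Cox6a1*, *Cox7a2*, *Cox8a*).

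Estimated counts summed to 11522979 to 15501002 per mouse. All 12 cardiomyocyte markers, all 8 endothelial, 8 fibroblast and 7 mural markers and all 10 leukocyte markers were measured, while the skeletal muscle myosins *Myh1*, *Myh2* and *Myh4* and the brown fat marker *Ucp1* had at most 3 counts in any mouse. The summed level of the cardiomyocyte markers was 96274 to 130717 CPM in control mice, 104192 to 119378 CPM at 2 weeks and 85906 to 96494 CPM at 6 weeks post-IR. Of these 12 markers, 2 were lower at 2 weeks and 11 at 6 weeks (median log2 fold change -0.21 and -0.46). Of all genes tested 1.93% and 11.5% were lower, and of genes with a mean of at least 50 CPM 4.66% and 27.3%. The summed leukocyte markers were at 135 to 424 CPM, 272 to 362 CPM and 391 to 541 CPM, with 2 and 8 of 10 higher (3.09% and 13.5% of all genes). Control mouse 4 stood apart, with the lowest cardiomyocyte sum of the controls, 424 CPM of leukocyte markers (219 or less in the others) and 5504 CPM of fibroblast markers. In whole tissue, fewer cardiomyocytes and less RNA of a gene per cardiomyocyte cannot be told apart, and the part of cell makeup in what follows was not tested.

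Some mitochondrial genes could not be counted on their own. Mouse chromosome 1 carries a nuclear copy of a stretch of the mitochondrial genome (GRCm38 chr1:24612775-24615565, minus strand), annotated as the unprocessed pseudogenes *Gm28661*, *Gm10925*, *Gm28437* and *Gm28438*. Their gene models matched *mt-Co2*, *mt-Atp6* and *mt-Co3* without a difference over 681, 678 and 783 bases, and matched *mt-Nd3* over 345 bases with the single substitution T3C (mitochondrial base first, counted from the first base of the gene model). The first 90 bases of a pair with no difference and of the pair with the substitution, from the GENCODE M21 transcripts, show why reads cannot be assigned. The differing base is in capitals.
mt-Co2 (mitochondrial genome, 7013 to 7102, plus strand): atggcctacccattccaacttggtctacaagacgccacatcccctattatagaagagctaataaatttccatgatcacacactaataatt
Gm28661 (chr1:24615476-24615565, minus strand): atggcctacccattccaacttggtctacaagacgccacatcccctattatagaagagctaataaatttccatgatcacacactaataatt
mt-Nd3 (mitochondrial genome, 9459 to 9548, plus strand): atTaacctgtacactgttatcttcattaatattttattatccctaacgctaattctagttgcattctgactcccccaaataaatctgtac
Gm28438 (chr1:24613030-24613119, minus strand): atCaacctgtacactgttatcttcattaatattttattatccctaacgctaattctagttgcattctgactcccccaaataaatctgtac
In control mice a median of 96.9% of the counts of *mt-Co2* and its copy were assigned to the copy, 76.9% for *mt-Co3*, 93.0% for *mt-Nd3* and 48.1% for *mt-Atp6*. The deposited levels of these 4 genes are therefore uncertain, and their values are also given with the counts of the copy added. For 38 of the 96 members some other gene had at least 20% of its 31-base words in the member. Of these other genes, *Gm10222* had 100% of its words in *mt-Nd4l* and *Gm28439* 100% in *mt-Nd4*, each with 0 counts in every mouse. *Gm29216* had 97.2% of its words in *mt-Co1* and took 35 to 10293 counts per mouse. Shared reads are therefore possible elsewhere, as given below for *Ndufb4* and *Atp5l*.

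Per transcript length, the mitochondrial messages dwarfed the nuclear ones in control mice. *mt-Co1* was at 72226 ± 2762 TPM (counts corrected for transcript length and library size, mean ± SD, n = 6) and *mt-Cytb* at 46649 ± 2206 TPM. Of the mitochondrial genes without an uncertain count, *mt-Nd6* was lowest at 8402 ± 1262 TPM. The most abundant nuclear encoded member was *Cox7a1* at 4756 ± 692 TPM, followed by *Atp5b*, the catalytic beta subunit of complex V, at 3908 ± 451 TPM, and *Cox8b* at 3717 ± 214 TPM. These 3 neighbours in the order differed by little more than their SDs, or less. Medians over the nuclear members were 311 TPM in complex I, 269.6 in complex II, 644 in complex III, 1483 in complex IV and 920.0 in complex V. At the other end were *Cox6b2* at 2.74 ± 2.03 TPM, *Atp5s* at 8.06 ± 1.38 TPM, *Cox4i2* at 9.84 ± 2.55 TPM and *Ndufa4l2* at 17.0 ± 2.75 TPM.

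At 6 weeks post-IR most of the respiratory chain was lower than in control mice, by 23.3% at the median of the nuclear encoded and 36.1% at the median of the mitochondrially encoded subunits. In the edgeR quasi-likelihood test on counts scaled by TMM (trimmed mean of M-values), 72 of 96 members were lower and 3 higher at an adjusted *P* under 0.05, against 11.5% of all genes tested that were lower and 13.5% that were higher. Among the 2791 genes with a mean of at least 50 CPM, the level that most members reach, 27.3% were lower. At 2 weeks 22 members were lower and 0 higher, against 1.93% and 3.09% of all genes (4.66% lower at 50 CPM or more). The 0 higher became 2 at an unadjusted *P* under 0.05 and 1 with DESeq2 or limma voom. The median log2 fold change of the members was -0.24 at 2 weeks and -0.40 at 6 weeks, whereas over all genes tested it was -0.0015 and -0.019. The 6-week and control groups did not overlap for 22 members (3.43% of all genes), and the 2-week and control groups for 11 (1.28%), each time with the irradiated mice lower. When a change of more than 1 log2 unit was also required, 0 members passed at 2 weeks and 1 at 6 weeks (*Cox6b2*) in the edgeR test, against 0.903% and 5.95% of all genes, and 0 between the times (1.14%). In what follows log2FC is the log2 fold change of irradiated over control mice ± its standard error (SE), and *P* is adjusted over all genes tested.

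How mice were scaled to each other changed these counts. Scaling by library size alone put the all-gene median log2 fold change at 0.15 at 2 weeks and 0.24 at 6 weeks, with 10 nuclear and 11 mitochondrial members lower and 4 higher at 6 weeks, and 8 lower and 2 higher at 2 weeks. On the deposited TPM values (log2(TPM + 1), no scaling between mice, all-gene median 0.29 at 6 weeks) 1 member was lower and 5 higher at 6 weeks, the nuclear median was 0.030, and 37 of the 75 called members changed sign. The TPM values sum to the same total in every mouse, mitochondrial messages included. Relative to the all-gene median in the same fit, none of the 75 changed sign under library size or TPM. The nuclear median was then -0.36 with TMM, -0.36 with library size and -0.26 with TPM, and the mitochondrial median -0.63, -0.62 and -0.50. TMM and library size differ by a factor per mouse that moves all genes alike. Their agreement relative to the median was therefore nearly fixed in advance and is no separate support. Without control mouse 4 the counts of lower members were 21 at 2 weeks and 72 at 6 weeks. The 2-week count fell to 12 without control mouse 3 and to 14 without mouse 3 or mouse 5 of the 2-week group.

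The fall was spread over all 5 complexes. At 6 weeks post-IR the nuclear encoded subunits called lower were 29 of 38 in complex I (median log2 fold change -0.38), 3 of 4 in complex II (-0.43), 4 of 8 in complex III (-0.40), 11 of 16 in complex IV (-0.33) and 13 of 17 in complex V (-0.39). At 2 weeks the counts in the same order were 8, 0, 1, 6 and 4, with medians between -0.30 and -0.19. Complexes V and I kept a similar share of the counts of all nuclear encoded members. Complex V took 38.4% ± 1.02 (SD, n = 6) in control mice and 38.6% ± 1.01 at 6 weeks, and complex I took 25.4% ± 0.404 and 25.6% ± 0.743. The other complexes took 21.9% ± 0.816 (IV), 10.3% ± 0.429 (III) and 3.93% ± 0.489 (II) in control mice. At 6 weeks these shares were 22.3% ± 2.07, 9.72% ± 0.607 and 3.78% ± 0.386. The complex IV share ran from 19.9% to 25.4% at 6 weeks, and its sum includes *Cox6a2*, which varied widely between mice. Differences between complexes were not tested.

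**Figure D1:**
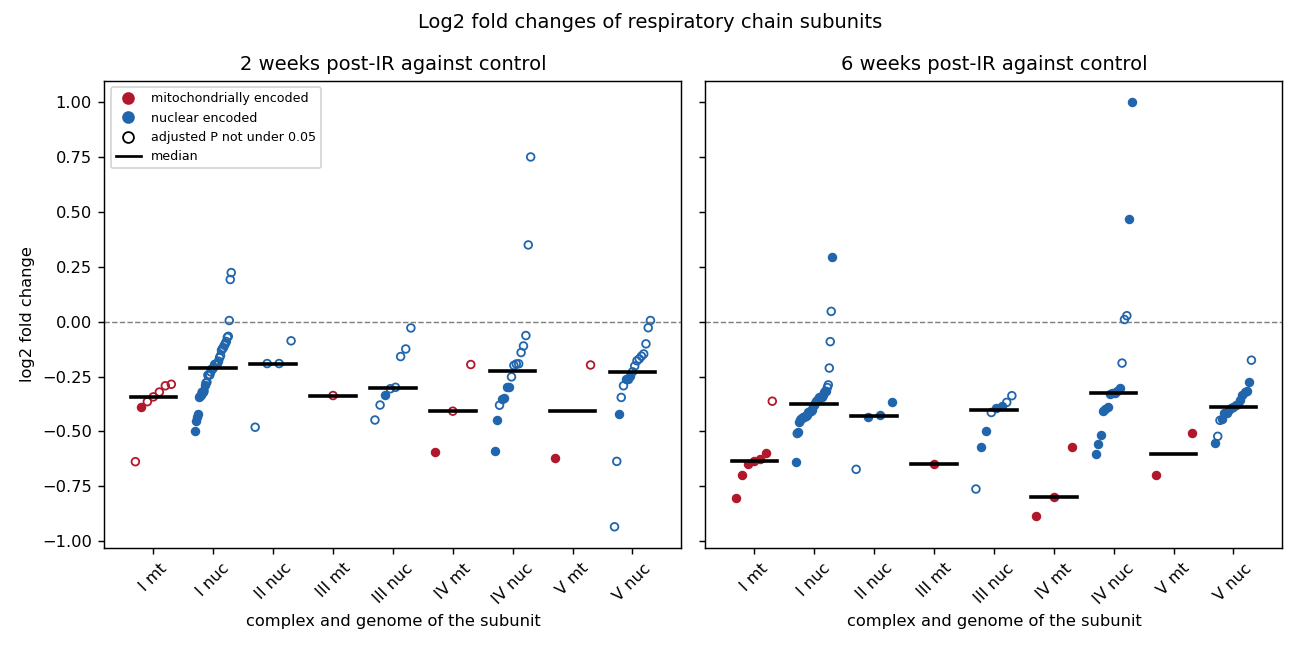
Log2 fold change of each member (points) against control, from TMM-scaled counts, at 2 weeks (left) and 6 weeks post-IR (right), by complex and genome, with filled points at an adjusted P under 0.05 and black lines at the median. At 6 weeks the medians of the nuclear encoded subunits lie between -0.43 (complex II) and -0.33 (complex IV), with 3 filled points above 0, and all 13 mitochondrially encoded subunits lie below 0.

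Promoters were searched for binding motifs of factors known to drive these genes: GCGCANGCG of nuclear respiratory factor NRF1, CCGGAAG of ETS factors such as GABPA, and TGACCTTGA of estrogen-related receptors (ERR), each on both strands. No matches of different motifs overlapped in the members' windows, while matches of the NRF1 motif on both strands can overlap each other, as in *Cox6a1*. RefSeq windows of 300 bases (250 before and 50 after a gene's start, GRCm38.p6) matched 65 of the 83 nuclear encoded members by symbol, with 70 windows. The NRF1 motif was in 30.0% of these windows and 6.25% of all 32851 windows, the ETS motif in 22.9% and 8.86%, and the ERR motif in 2.86% and 0.423%. The ERR motif was in 2 members, *Sdhd* and *Atp5g3*, which are among the subunits with the smallest adjusted *P* at 6 weeks, and their windows are shown with motifs in capitals. They are followed by the heart isoforms *Cox7a1* and *Cox8b* and by *Cox6a1* and *Cox8a*, isoforms of most tissues, whose values are given with the isoforms.
Sdhd (chr9:50603800-50604099, minus strand): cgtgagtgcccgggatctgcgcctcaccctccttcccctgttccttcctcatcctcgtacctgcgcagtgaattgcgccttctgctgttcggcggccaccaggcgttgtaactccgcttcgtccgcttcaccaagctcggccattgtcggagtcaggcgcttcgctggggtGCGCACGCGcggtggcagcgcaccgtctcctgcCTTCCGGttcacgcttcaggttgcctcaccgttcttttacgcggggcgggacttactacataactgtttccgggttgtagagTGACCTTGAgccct
Atp5g3 (chr2:73911277-73911576, minus strand): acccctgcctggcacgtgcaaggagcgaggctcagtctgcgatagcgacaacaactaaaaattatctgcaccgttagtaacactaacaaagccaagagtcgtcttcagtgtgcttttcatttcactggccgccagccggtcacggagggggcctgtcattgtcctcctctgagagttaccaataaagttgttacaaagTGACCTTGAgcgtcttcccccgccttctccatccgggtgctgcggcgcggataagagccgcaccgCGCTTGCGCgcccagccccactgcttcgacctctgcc
Cox7a1 (chr7:30183921-30184220, plus strand): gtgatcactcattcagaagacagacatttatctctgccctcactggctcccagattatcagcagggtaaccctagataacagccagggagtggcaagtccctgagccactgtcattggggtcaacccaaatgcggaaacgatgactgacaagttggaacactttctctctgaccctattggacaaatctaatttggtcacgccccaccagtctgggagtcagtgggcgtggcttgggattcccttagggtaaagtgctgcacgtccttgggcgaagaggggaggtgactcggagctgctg
Cox8b (chr7:140900397-140900696, minus strand): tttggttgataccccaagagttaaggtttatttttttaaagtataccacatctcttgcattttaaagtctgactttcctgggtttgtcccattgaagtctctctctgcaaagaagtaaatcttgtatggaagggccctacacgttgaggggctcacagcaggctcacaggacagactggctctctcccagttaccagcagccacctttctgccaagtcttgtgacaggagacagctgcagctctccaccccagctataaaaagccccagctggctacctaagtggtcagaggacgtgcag
Cox6a1 (chr5:115348909-115349208, minus strand): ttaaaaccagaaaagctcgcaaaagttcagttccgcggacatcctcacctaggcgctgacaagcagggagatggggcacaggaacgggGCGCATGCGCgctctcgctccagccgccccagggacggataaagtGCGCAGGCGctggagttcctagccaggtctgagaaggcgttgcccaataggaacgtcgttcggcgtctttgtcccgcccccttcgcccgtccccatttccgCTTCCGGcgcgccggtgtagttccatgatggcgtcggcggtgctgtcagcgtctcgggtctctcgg
Cox8a (chr19:7217567-7217866, minus strand): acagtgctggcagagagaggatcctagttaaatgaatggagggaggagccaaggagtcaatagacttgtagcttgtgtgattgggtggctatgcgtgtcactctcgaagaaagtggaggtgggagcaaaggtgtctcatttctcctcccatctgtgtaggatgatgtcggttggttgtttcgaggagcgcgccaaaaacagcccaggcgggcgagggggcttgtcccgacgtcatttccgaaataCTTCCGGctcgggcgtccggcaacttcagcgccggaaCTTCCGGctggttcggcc
The *Sdhd* window holds all 3 motifs and the *Atp5g3* window holds those of NRF1 and ERR. *Cox6a1* has NRF1 and ETS motifs and *Cox8a* has ETS motifs, while the letters of none of the 3 occur in the windows of *Cox7a1* and *Cox8b*. At 6 weeks post-IR 16 of 20 members with the NRF1 motif were lower (median log2 fold change -0.37), as were 35 of 45 without it (-0.39). For the ETS motif the counts were 11 of 16 (-0.38) and 40 of 49 (-0.39). For the ERR motif they were 2 of 2 (-0.44) and 49 of 63 (-0.38).

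All 13 mitochondrially encoded messages had negative log2 fold changes at both times. At 6 weeks post-IR 12 of 13 were lower, with a median log2 fold change of -0.65 and a range of -0.88 to -0.36. At 2 weeks 3 were lower (*mt-Nd4l*, *mt-Co3* and *mt-Atp6*), with a median of -0.34. This count was 8 with DESeq2, 7 with limma voom, 1 with library size scaling or the replicate block and 0 on log2(TPM + 1). It was 5 without control mouse 1, and 1 without control mouse 2, 3, 4 or 5, 2-week mouse 1, 3, 4, 5 or 6, or 6-week mouse 1, 3 or 5. *mt-Co1* (mitochondrial genome, 5328 to 6872), which encodes the catalytic core of complex IV and was the most abundant member, was at 67678 to 96672 CPM (median 83292) in control mice, 51006 to 67792 CPM (median 66543) at 2 weeks and 45445 to 67269.5 CPM (median 53698) at 6 weeks post-IR. Every 6-week mouse lay below every control mouse (log2FC -0.57 ± 0.16, adjusted *P* = 0.0113). *mt-Cytb*, the only mitochondrial gene of complex III, was at 32898 to 48226 CPM (median 41664) in control mice, 29797 to 37839 CPM (median 31898) at 2 weeks and 22074 to 29099 CPM (median 26692) at 6 weeks post-IR. It too did not overlap with control at 6 weeks (log2FC -0.65 ± 0.13, adjusted *P* = 0.00103), and at 2 weeks it did not pass the test (log2FC -0.34 ± 0.13, adjusted *P* = 0.134).

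In complex I, the membrane arm subunit *mt-Nd1* was at 22388 to 33411 CPM (median 28475) in control mice, 19761 to 24823 CPM (median 22276) at 2 weeks and 16835 to 22173 CPM (median 17513) at 6 weeks post-IR. It was lower at 6 weeks (log2FC -0.64 ± 0.12, adjusted *P* = 0.000856), again without overlap with control. *mt-Nd4* (log2FC -0.60 ± 0.12, adjusted *P* = 0.00135) and its overlapping neighbour *mt-Nd4l* (log2FC -0.65 ± 0.11, adjusted *P* = 0.000298) also fell without overlap (the gene models of the pair share bases, so reads there could go to either). *mt-Nd2* (log2FC -0.63 ± 0.13, adjusted *P* = 0.00126) and *mt-Nd5* (log2FC -0.70 ± 0.14, adjusted *P* = 0.00134) fell with overlapping groups. *mt-Nd6*, the only one of the 13 read from the light strand, was at 1379.9 to 2551 CPM (median 2251) in control mice, 1413 to 2011 CPM (median 1682) at 2 weeks and 957 to 1941 CPM (median 1734) at 6 weeks post-IR. Its log2 fold change was -0.36 ± 0.16 at 6 weeks (adjusted *P* = 0.109) and its groups overlapped. How strand was used in the counting is not given in the sources used here, so RNA of the opposite strand at *mt-Nd6* could enter its count.

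In complex V, *mt-Atp6*, part of the proton channel, was at 13981 to 19736 CPM (median 18254) in control mice, 8592 to 13504 CPM (median 11898) at 2 weeks and 9552 to 13962 CPM (median 10492) at 6 weeks post-IR. In the deposited counts it was lower and did not overlap with control at either time (log2FC -0.62 ± 0.12, adjusted *P* = 0.00824 at 2 weeks and log2FC -0.70 ± 0.12, adjusted *P* = 0.000455 at 6 weeks). *mt-Atp8*, whose gene model overlaps that of *mt-Atp6*, was lower at 6 weeks (log2FC -0.51 ± 0.11, adjusted *P* = 0.00275). *mt-Co2* was at 625 to 1256 CPM (median 1032) in control mice and 384 to 678 CPM (median 549) at 6 weeks (log2FC -0.88 ± 0.19, adjusted *P* = 0.00224). *mt-Co3* (log2FC -0.80 ± 0.17, adjusted *P* = 0.00187) and *mt-Nd3* (log2FC -0.80 ± 0.20, adjusted *P* = 0.00598) also fell at 6 weeks. With the counts of the nuclear copies added, the 4 uncertain genes had these log2FC values: *mt-Co2* -0.62 ± 0.13, *mt-Co3* -0.67 ± 0.12, *mt-Nd3* -0.74 ± 0.13 and *mt-Atp6* -0.57 ± 0.15, all with adjusted *P* of 0.00928 or less. The 12 calls at 6 weeks held, and at 2 weeks 2 genes were lower, *mt-Co3* and *mt-Nd4l*, since *mt-Atp6* then had an adjusted *P* of 0.0508 (log2FC -0.52 ± 0.15). With its copy added, *mt-Atp6* also overlapped with control at both times. The lowest control mouse was at 26554 CPM, the highest 2-week mouse at 27921 CPM and the highest 6-week mouse at 28556 CPM.

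**Figure D2:**
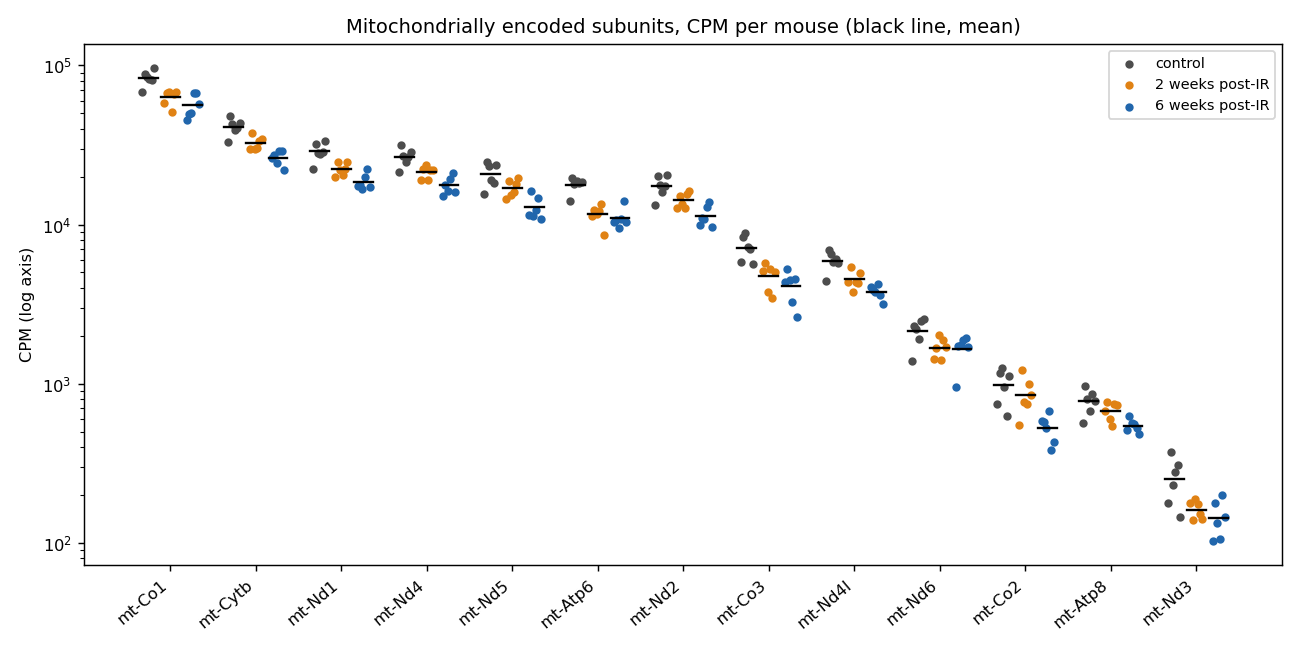
CPM of the 13 mitochondrially encoded subunits in each mouse (points, log axis, 6 mice per group), ordered by their mean in control mice, with black lines at the group mean. The 6-week points sit below the control points for most genes, as for *mt-Cytb* (22074 to 29099 against 32898 to 48226 CPM), and *mt-Nd6* overlaps.

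Counts of the 13 mitochondrial genes as deposited, without those of the nuclear copies, were set against those of the 83 nuclear encoded subunits within each mouse. No scaling between mice can change this ratio. It was 6.11 to 8.09 in control mice (7.06 ± 0.725, mean ± SD, n = 6), 5.35 to 6.90 at 2 weeks (6.29 ± 0.587) and 5.51 to 6.63 at 6 weeks (5.96 ± 0.372). The means were lower post-IR, but the groups overlapped at both times. The 13 genes made up a mean of 22.9% of all counts in control mice and 17.9% at 6 weeks. With the copies these shares were 29.7% and 23.4%. The median log2 fold change was lower for mitochondrial than for nuclear encoded members, as a difference of 0.13 at 2 weeks and 0.27 at 6 weeks, with no test of the difference. The nuclear encoded members were also set against the 12 cardiomyocyte markers. This ratio of summed counts was 0.291 to 0.328 in control mice, 0.281 to 0.286 at 2 weeks and 0.291 to 0.320 at 6 weeks. At 2 weeks it lay below every control mouse. At 6 weeks the groups overlapped, with 1 mouse just below the lowest control mouse (0.29065 against 0.29067), although members and markers were both lower at 6 weeks. The corresponding ratio of the mitochondrial genes was 1.78 to 2.53, 1.50 to 1.94 and 1.70 to 2.10, with overlapping groups. Both ratios divide by a sum in which *Ttn* weighs most, at a mean of 57918 of 115427 CPM in control mice. *Ttn* was the 1 marker of 12 with a positive log2 fold change at 2 weeks (0.048 ± 0.12). The median log2 fold change at 2 weeks was -0.215 for the markers and -0.215 for the nuclear encoded members. The part of *Ttn* in the 2-week ratio was not tested.

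**Figure D3:**
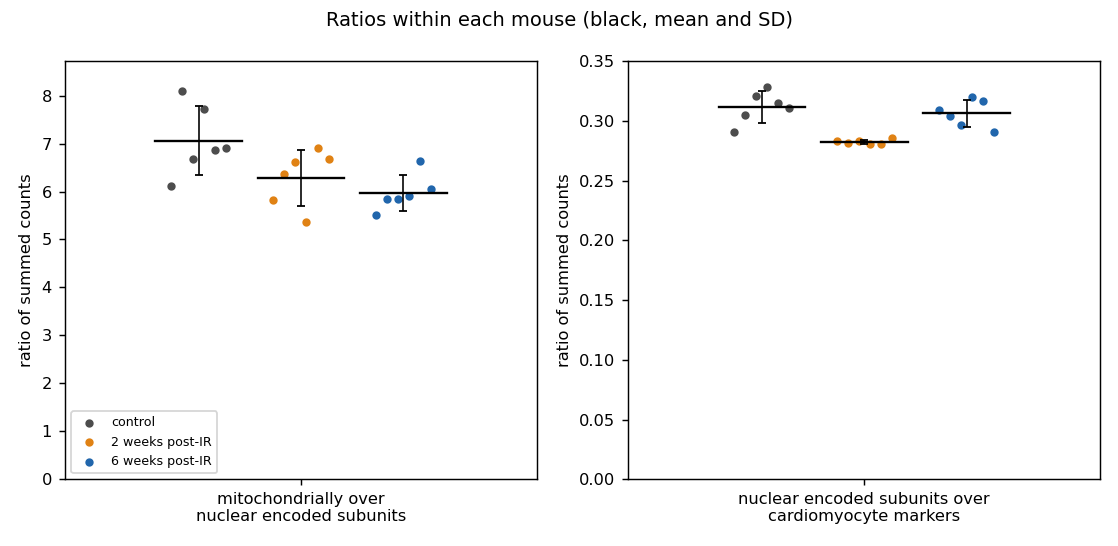
Ratios of summed counts within each mouse (points), with the group mean and SD in black and axes from 0: mitochondrially over nuclear encoded subunits (left) and nuclear encoded subunits over the 12 cardiomyocyte markers (right). The left ratio leaves out the counts of the nuclear copies and averages 7.06, 6.29 and 5.96. On the right the 2-week mice sit below the control mice while the 6-week mice overlap with them.

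Complex I holds the most members. *Ndufa4* (chr6:11900292-11907497), first assigned to complex I and since placed in complex IV, was at 593 to 779 CPM (median 713) in control mice, 469 to 544 CPM (median 525) at 2 weeks and 470.1 to 595 CPM (median 492) at 6 weeks post-IR. It was lower at both times, at 2 weeks without overlap (log2FC -0.42 ± 0.076, adjusted *P* = 0.0044) and at 6 weeks (log2FC -0.42 ± 0.076, adjusted *P* = 0.000494). *Ndufb4*, an accessory subunit of the membrane arm, was at 132 to 172 CPM (median 168) in control mice, 114 to 128 CPM (median 120.2) at 2 weeks and 106 to 146 CPM (median 115) at 6 weeks post-IR. It was lower by a like amount at 2 weeks (log2FC -0.43 ± 0.075, adjusted *P* = 0.00343, no overlap) and 6 weeks (log2FC -0.44 ± 0.075, adjusted *P* = 0.000348). Every 31-base word of the member *Ndufb4c*, an annotated processed pseudogene, occurs in *Ndufb4*, so the counts of the pair cannot be separated. *Ndufb2*, also in the membrane arm, was lower at 2 weeks without overlap (log2FC -0.45 ± 0.081, adjusted *P* = 0.00415) and at 6 weeks (log2FC -0.39 ± 0.081, adjusted *P* = 0.00169). *Ndufs1*, the large iron-sulphur subunit of the matrix arm, was at 366 to 528 CPM (median 455) in control mice, 375 to 430.2 CPM (median 404) at 2 weeks and 327 to 386 CPM (median 331) at 6 weeks post-IR. It passed the test at 6 weeks (log2FC -0.41 ± 0.075, adjusted *P* = 0.000604) and not at 2 weeks (adjusted *P* = 0.179). *Ndufs4*, an accessory subunit of the matrix arm, had the lowest log2 fold change of nuclear complex I members at 6 weeks (log2FC -0.64 ± 0.22, adjusted *P* = 0.0408) with overlapping groups. Across the 38 nuclear members the 6-week values ran from -0.64 to 0.29.

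Complex II, succinate dehydrogenase, is the only complex without a mitochondrial gene. *Sdhd* (chr9:50596357-50603812), a membrane anchor that helps bind coenzyme Q, was at 258 to 313 CPM (median 286) in control mice, 234 to 265 CPM (median 249) at 2 weeks and 192 to 244 CPM (median 210.2) at 6 weeks post-IR. The 6-week mice all lay below the control mice (log2FC -0.43 ± 0.063, adjusted *P* = 7.81e-05), and at 2 weeks it did not pass the test (log2FC -0.19 ± 0.063, adjusted *P* = 0.087). The other anchor, *Sdhc* (log2FC -0.42 ± 0.10, adjusted *P* = 0.00315), and the flavoprotein *Sdha* (log2FC -0.37 ± 0.10, adjusted *P* = 0.0126) were lower at 6 weeks with overlapping groups. The iron-sulphur subunit *Sdhb* had the most negative estimate of the complex but a wide error (log2FC -0.67 ± 0.30, adjusted *P* = 0.114).

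In complex III the Rieske iron-sulphur protein *Uqcrfs1* (chr13:30540308-30545362) was at 622 to 789.6 CPM (median 723) in control mice, 531 to 622 CPM (median 561) at 2 weeks and 429 to 576 CPM (median 446) at 6 weeks post-IR. It was the only member of the complex called at 2 weeks (log2FC -0.33 ± 0.081, adjusted *P* = 0.0234), and at 6 weeks it no longer overlapped with control (log2FC -0.57 ± 0.082, adjusted *P* = 6.79e-05). The core protein *Uqcrc1* was at 908 to 1412 CPM (median 1147) in control mice, 969 to 1166 CPM (median 1085) at 2 weeks and 751 to 1011 CPM (median 805) at 6 weeks post-IR. It passed at 6 weeks (log2FC -0.50 ± 0.10, adjusted *P* = 0.000927) and at 2 weeks its log2FC was -0.12 ± 0.10. *Uqcrb*, a small subunit near the coenzyme Q site, was lower at 6 weeks (log2FC -0.40 ± 0.10, adjusted *P* = 0.00509). The 4 nuclear members not called at 6 weeks (*Uqcr10*, *Uqcrc2*, *Uqcrh* and *Uqcrq*) had log2 fold changes of -0.34, -0.37, -0.41 and -0.76.

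In complex V, *Atp5f1* (chr3:105942698-105960099), the b subunit of the stalk that holds the head of the enzyme still, was at 707 to 872 CPM (median 776) in control mice, 639.8 to 677 CPM (median 649) at 2 weeks and 545 to 681 CPM (median 565) at 6 weeks post-IR. It was lower without overlap at 2 weeks (log2FC -0.26 ± 0.064, adjusted *P* = 0.0234) and at 6 weeks (log2FC -0.42 ± 0.064, adjusted *P* = 0.000128). *Atp5j*, coupling factor 6 of the same stalk, was lower at 6 weeks (log2FC -0.32 ± 0.051, adjusted *P* = 0.000193, no overlap), and *Atp5l*, subunit g of the membrane part, was lower at 2 weeks (log2FC -0.42 ± 0.10, adjusted *P* = 0.0186) and 6 weeks (log2FC -0.38 ± 0.10, adjusted *P* = 0.00727). *Gm10221* had 100% of its words in *Atp5l*, so the counts of the pair cannot be separated. *Gm10221* took a median of 25.8% of the pair's counts in control mice, 28.6% at 2 weeks and 26.1% at 6 weeks. The values of *Atp5l* are therefore uncertain. The c subunit, which forms the rotor ring, is encoded by 3 genes whose mature proteins are identical. *Atp5g3* (chr2:73908447-73911326), the most abundant of the 3 per length in control mice (1722 ± 108 TPM, SD, n = 6), was at 804 to 1019 CPM (median 889) in control mice, 702 to 823 CPM (median 800.1) at 2 weeks and 624 to 733 CPM (median 657) at 6 weeks post-IR. It fell at 6 weeks without overlap (log2FC -0.44 ± 0.065, adjusted *P* = 8.04e-05). *Atp5g1* (1593 ± 215 TPM) had the most negative value among the called nuclear members of the complex (log2FC -0.55 ± 0.17, adjusted *P* = 0.0235). *Atp5g2* (456 ± 33.7 TPM) was lower at 2 weeks (log2FC -0.26 ± 0.054, adjusted *P* = 0.0101) and at 6 weeks (log2FC -0.28 ± 0.054, adjusted *P* = 0.00101). *Atp5j2*, subunit f, had the highest log2FC of the complex at 6 weeks, -0.18 ± 0.16 (adjusted *P* = 0.465).

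Isoforms of a complex IV subunit were also compared within each mouse by the ratio of their counts, as a description. The heart isoform *Cox7a1* (chr7:30184144-30186078) was at 664 to 1095 CPM (median 763) in control mice, 458 to 672 CPM (median 581) at 2 weeks and 455 to 637 CPM (median 507) at 6 weeks post-IR. It had the most negative 6-week value of the nuclear members of complex IV (log2FC -0.60 ± 0.12, adjusted *P* = 0.00138), with no overlap. *Cox7a2*, its counterpart in most tissues, was lower at 2 weeks (log2FC -0.35 ± 0.071, adjusted *P* = 0.00893) and at 6 weeks (log2FC -0.31 ± 0.071, adjusted *P* = 0.00323). The ratio of *Cox7a1* to *Cox7a2* counts was 3.01 to 5.31 in control mice and 2.7 to 3.66 at 6 weeks, with overlap. *Cox7a2l*, which joins complexes III and IV into supercomplexes, was lower at 6 weeks (log2FC -0.39 ± 0.082, adjusted *P* = 0.00189).

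The heart isoform *Cox8b* was at 549 to 689 CPM (median 644) in control mice, 483 to 536 CPM (median 518) at 2 weeks and 419 to 549 CPM (median 464) at 6 weeks post-IR. It was lower at 2 weeks without overlap (log2FC -0.30 ± 0.072, adjusted *P* = 0.0227) and at 6 weeks (log2FC -0.40 ± 0.072, adjusted *P* = 0.000455). *Cox8a*, the isoform of most tissues, was at 128 to 186 CPM (median 175) in control mice, 107 to 165 CPM (median 149.8) at 2 weeks and 144 to 206 CPM (median 158) at 6 weeks post-IR. Its groups overlapped, and its 6-week log2FC was 0.010 ± 0.11 (adjusted *P* = 0.964, 95% interval -0.21 to 0.23). *Cox8b* gave 3.07 to 4.87 counts per count of *Cox8a* in control mice, 3.12 to 4.52 at 2 weeks and 2.67 to 3.27 at 6 weeks. *Cox6a1*, also an isoform of most tissues, was at 94.4 to 129 CPM (median 127) in control mice, 103 to 125 CPM (median 114) at 2 weeks and 116 to 134 CPM (median 124) at 6 weeks post-IR. Its groups overlapped, with a 6-week log2FC of 0.028 ± 0.071 (adjusted *P* = 0.824), and its interval of -0.11 to 0.17 did not reach the nuclear median of -0.38.

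The 3 members that rose at 6 weeks post-IR are each the scarce partner of an abundant subunit. *Cox4i2* (chr2:152754173-152765037), an isoform of lung and hypoxic cells, was at 4.75 to 7.10 CPM (median 5.12) in control mice, 5.94 to 7.44 CPM (median 7.01) at 2 weeks and 6.85 to 8.04 CPM (median 7.54) at 6 weeks post-IR. It was higher at 6 weeks (log2FC 0.47 ± 0.10, adjusted *P* = 0.00242), and 1 control mouse overlapped. Its partner *Cox4i1* was lower (log2FC -0.33 ± 0.085, adjusted *P* = 0.0087). Counts of *Cox4i1* per count of *Cox4i2* were 142 to 239 in control mice, 114 to 168 at 2 weeks and 103 to 128 at 6 weeks. At 6 weeks no mouse reached the control range. *Ndufa4l2* (chr10:127514967-127517154), a paralogue of *Ndufa4* induced by hypoxia, was at 14.9 to 17.5 CPM (median 16.4) in control mice, 16.0 to 20.9 CPM (median 19.3) at 2 weeks and 17.2 to 22.2 CPM (median 20.7) at 6 weeks post-IR. It was higher at 6 weeks (log2FC 0.29 ± 0.083, adjusted *P* = 0.0135), and counts of *Ndufa4* per count of *Ndufa4l2* were 33.9 to 52.2 in control mice, 24.4 to 34.1 at 2 weeks and 22.5 to 29.0 at 6 weeks. *Cox6b2*, known as a testis isoform, was near the filter at 0.185 to 1.81 CPM (median 0.628) in control mice, 0.974 to 2.50 CPM (median 1.14) at 2 weeks and 0.964 to 2.21 CPM (median 1.60) at 6 weeks post-IR. It was called higher at 6 weeks (log2FC 1.0 ± 0.36, adjusted *P* = 0.0492) with overlapping groups and under 3 CPM in every mouse. *Cox6b1* fell at 2 weeks (log2FC -0.30 ± 0.059, adjusted *P* = 0.00824) and at 6 weeks without overlap (log2FC -0.30 ± 0.059, adjusted *P* = 0.000993). Which cells carried these 3 rises was not tested. Of the 7 mural markers 0 passed the edgeR test at either time, while 1 was lower at 2 weeks at an unadjusted *P* under 0.05, with DESeq2 and with limma voom. Of all genes 1.93% were lower and 3.09% higher at 2 weeks, and 11.5% and 13.5% at 6 weeks. The summed level of the mural markers was 773 to 1039.8 CPM in control mice, 701 to 998 CPM at 2 weeks and 685 to 1045 CPM at 6 weeks.

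**Figure D4:**
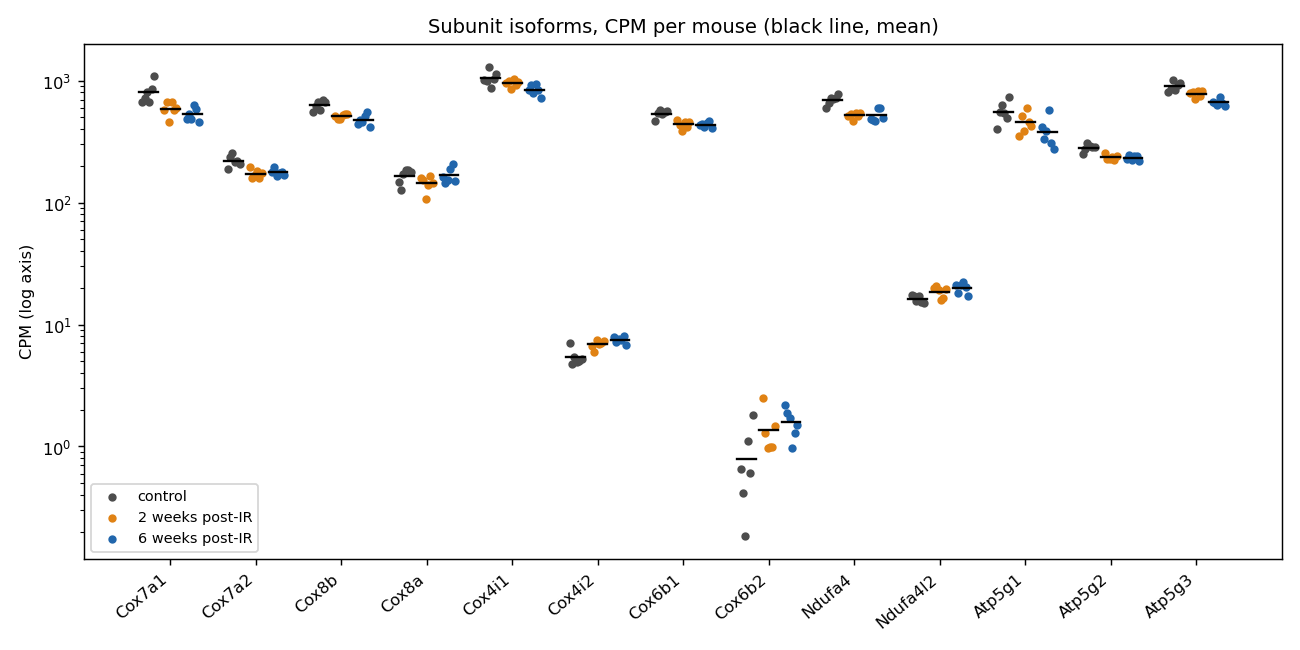
CPM of subunit isoforms in each mouse (points, log axis, 6 mice per group) with black lines at the group mean. *Cox7a1*, *Cox8b*, *Cox4i1*, *Cox6b1* and *Ndufa4* are lower at 6 weeks, *Cox8a* overlaps in all groups, and *Cox4i2*, *Cox6b2* and *Ndufa4l2* are higher, with medians of 7.54, 1.60 and 20.7 CPM against 5.12, 0.628 and 16.4 CPM in control mice.

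Further complex IV subunits were lower at both times. *Cox7b* was at 427 to 706 CPM (median 493) in control mice, 317 to 419 CPM (median 364) at 2 weeks and 332 to 424 CPM (median 371) at 6 weeks post-IR. It was lower without overlap at 2 weeks (log2FC -0.59 ± 0.12, adjusted *P* = 0.00831) and 6 weeks (log2FC -0.56 ± 0.12, adjusted *P* = 0.00196). *Cox5a* was lower at 2 weeks without overlap (log2FC -0.35 ± 0.076, adjusted *P* = 0.0132) and at 6 weeks (log2FC -0.40 ± 0.076, adjusted *P* = 0.000825).

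Among the nuclear members not called at 6 weeks were several with a large spread between mice. The within-group SD of log2 CPM had a median of 0.154 over the 63 nuclear members called at 6 weeks and 0.378 over the 20 not called. In 7 members of any level it was above 0.5 (7.29% of members), among them *Cox6b2* at 2.50 CPM or less in every mouse. Of genes with a mean of at least 50 CPM the share was 3.55%, so the 2 sets differ in level. Low or high mice occurred with and without IR. *Atp5e*, *Atp5mpl* and *Ndufa6* are described here because of this spread, chosen after their values were seen. The heart isoform *Cox6a2* (chr7:128205435-128206387) fell into separate levels: 1 control mouse at 92.4 CPM, 2 mice at 2 weeks at 79.6 and 77.0 CPM, and 2 at 6 weeks at 69.7 and 48.6 CPM, where the other 13 mice lay between 748 and 1768 CPM. *Atp5e*, the epsilon subunit of complex V, was at 3.95 CPM in 1 control mouse and at 3.53 and 2.92 CPM in 2 mice at 2 weeks, against 91.5 to 311 CPM in the others. *Atp5mpl*, a small complex V subunit, was at 11.5 and 7.77 CPM in 1 mouse each of the control and 2-week groups, against 71.9 to 236 CPM. *Sdhb* was highest in 1 mouse of each group, at 629, 387 and 302 CPM, and *Ndufa6* reached 109 CPM or more in 1 control mouse, 2 mice at 2 weeks and 1 at 6 weeks. For *Cox6a2* the 6-week log2FC was -0.19 ± 0.79 (adjusted *P* = 0.896, 95% interval -1.74 to 1.36), so a change of the size seen in *Cox8b* could not be detected.

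**Figure D5:**
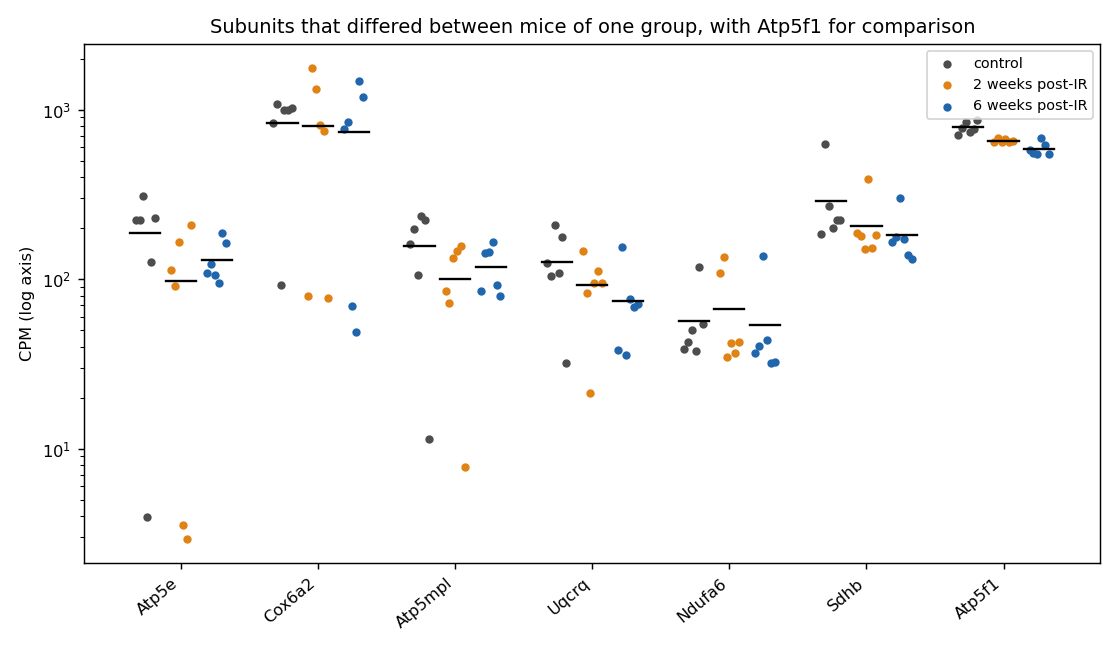
CPM in each mouse (points, log axis, 6 mice per group) of 6 subunits with a large spread within groups, and of *Atp5f1* for comparison, with black lines at the group mean. *Cox6a2*, *Atp5e* and *Atp5mpl* show single mice far below the rest in more than 1 group, while *Atp5f1* varies between 545 and 872 CPM.

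Some of the genes whose levels varied between mice most like those of these 7 members lay close to them. For each nuclear encoded member, the 10 genes with the largest absolute Pearson correlation of within-group deviations were found (log2 CPM, 18 mice, which share library and depth, given as a description). Of the 70 such genes of the 7 members, 23 (32.9%) lay within 2 Mb of the member, and of the 760 of the other 76 nuclear members 23 did (3.03%). Of these 23, 10 belonged to *Ndufa13*, whose within-group SD of 0.461 lay just under the limit of 0.5 and for which all 10 were near, the highest count of any member. For *Sdhb* 7 of 10 were near, led by *Szrd1* and *Hspb7* (r = 0.941 and 0.930). For *Atp5mpl* 5 of 10 were near, led by *Apopt1* and *Klc1* (r = 0.938 and 0.915), and for *Ndufa6* 5 of 10, led by its neighbour *Smdt1* (r = 0.965). *Atp5e* had 2 near (*Nelfcd*, r = 0.920), *Uqcrq* 3, *Cox6a2* 1 and *Cox6b2* 0. CD-1 is an outbred stock and the labels give no genotype, and inherited differences between mice were not tested.

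Between 2 and 6 weeks post-IR the number of members called depended on the test. Of 96 members, 83 had a negative log2 fold change at 6 weeks against 2 weeks (median -0.17), and 4 passed the edgeR test as lower, with 0 higher (also at an unadjusted *P* under 0.05, with DESeq2 and with limma voom), against 2.01% and 3.31% of all genes. DESeq2 called 12 lower and limma voom 18. The 4 were *Sdhd* (log2FC -0.24 ± 0.063, adjusted *P* = 0.033), *Uqcrc1* (log2FC -0.37 ± 0.10, adjusted *P* = 0.0322), *Atp5g3* (log2FC -0.24 ± 0.065, adjusted *P* = 0.0371) and *mt-Co2* (log2FC -0.69 ± 0.19, adjusted *P* = 0.0431). At 50 CPM or more 4.8% of genes were lower. *mt-Cytb* was the member whose groups did not overlap between the times (1.27% of all genes), with an adjusted *P* of 0.16. The *mt-Co2* call was lost once its nuclear copy was added (log2FC -0.25 ± 0.12, adjusted *P* = 0.265). Leaving out 1 mouse at a time gave 0 to 12 calls, the 12 without mouse 4 of the 6-week group, and none of the 4 passed in every fit.

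Some of the genes that build the complexes were also lower at 6 weeks. Of 53 assembly factors in 5 lists, 3 were lower at 2 weeks and 25 at 6 weeks, against 1.93% and 11.5% of all genes, with 0 higher at either time in the edgeR test (1 at 2 weeks at an unadjusted *P* under 0.05 and with DESeq2, median log2 fold change -0.18 and -0.29, and 51 of 53 negative at 6 weeks). By complex these were 7 of 16 for complex I, 3 of 4 for complex II, 2 of 6 for complex III, 10 of 22 for complex IV and 3 of 5 for complex V at 6 weeks. *Ndufab1*, the mitochondrial acyl carrier protein and itself part of complex I, was lower at 2 weeks (log2FC -0.48 ± 0.091, adjusted *P* = 0.00527) and 6 weeks (log2FC -0.52 ± 0.091, adjusted *P* = 0.000429). At 6 weeks *Ndufaf1* and *Tmem186*, which help assemble the membrane arm of complex I, had log2FC values of -0.59 ± 0.12 and -0.35 ± 0.084. *Bcs1l*, which inserts the Rieske protein into complex III, had a log2FC of -0.37 ± 0.12 and *Uqcc2*, of the same complex, one of -0.33 ± 0.080. *Cox10*, of heme a synthesis, had a log2FC of -0.32 ± 0.066, *Taco1*, which activates translation of *mt-Co1*, one of -0.53 ± 0.12, and *Cox14* one of -0.38 ± 0.085. The complex II factors *Sdhaf1*, *Sdhaf3* and *Sdhaf4* had log2FC values of -0.23 ± 0.082, -0.53 ± 0.12 and -0.77 ± 0.22, and the complex V factors *Atpaf1*, *Atpaf2* and *Fmc1* values of -0.48 ± 0.13, -0.39 ± 0.091 and -0.34 ± 0.11, all with an adjusted *P* of 0.0472 or less. At 2 weeks the complex IV factors *Cmc1* (log2FC -0.86 ± 0.19, adjusted *P* = 0.0142) and *Coa3* (log2FC -0.24 ± 0.067, adjusted *P* = 0.0479) were lower.

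Among 14 genes of cytochrome c, coenzyme Q synthesis and electron entry, 4 were lower at 2 weeks and 11 at 6 weeks (median log2 fold change -0.41), against 1.93% and 11.5% of all genes. *Coq10a*, a coenzyme Q binding protein, was lower at 2 weeks (log2FC -0.38 ± 0.078, adjusted *P* = 0.00893) and 6 weeks (log2FC -0.48 ± 0.078, adjusted *P* = 0.000207). *Cycs*, cytochrome c itself, was lower at 2 weeks (log2FC -0.30 ± 0.079, adjusted *P* = 0.0367), as was *Coq3* (log2FC -0.34 ± 0.094, adjusted *P* = 0.0409). *Coq9* (log2FC -0.56 ± 0.10, adjusted *P* = 0.000362) and *Etfdh*, which feeds electrons from fatty acid oxidation to coenzyme Q (log2FC -0.56 ± 0.10, adjusted *P* = 0.000478), were lower at 6 weeks.

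The regulators of these genes did not move as one. Of 12 nuclear regulators, 0 were lower and 0 higher at 2 weeks in the edgeR test, and 4 were lower and 2 higher at 6 weeks, against 11.5% and 13.5% of all genes. The 2-week counts were 2 lower and 2 higher at an unadjusted *P* under 0.05, 1 lower with DESeq2 and none with limma voom. The estrogen-related receptors *Esrrg* (log2FC -0.43 ± 0.065, adjusted *P* = 0.000118), *Esrrb* (log2FC -0.43 ± 0.092, adjusted *P* = 0.00188) and *Esrra* (log2FC -0.25 ± 0.066, adjusted *P* = 0.00944) were lower at 6 weeks, as was the coactivator *Ppargc1a* (log2FC -0.38 ± 0.13, adjusted *P* = 0.0422). *Pprc1*, a coactivator related to *Ppargc1a* (log2FC 0.35 ± 0.10, adjusted *P* = 0.0126), and the transcription factor *Yy1* (log2FC 0.20 ± 0.066, adjusted *P* = 0.03) were higher. At 2 weeks the log2FC of *Ppargc1a* was 0.24 ± 0.13 (adjusted *P* = 0.329). Its log2 fold change at 6 against 2 weeks was -0.62 ± 0.13 (adjusted *P* = 0.0156). Of 20 genes of mitochondrial DNA transcription and RNA handling, 3 were lower at 2 weeks and 7 at 6 weeks (1.93% and 11.5% of all genes), with 0 higher in the edgeR test, at an unadjusted *P* under 0.05, with DESeq2 or with limma voom. The transcription factors *Tfb2m* (log2FC -0.44 ± 0.068, adjusted *P* = 0.000147) and *Tfam* (log2FC -0.34 ± 0.066, adjusted *P* = 0.000887) and the RNA helicase *Supv3l1* (log2FC -0.42 ± 0.093, adjusted *P* = 0.00272) were lower at 6 weeks. *Tfb2m* (log2FC -0.28 ± 0.068, adjusted *P* = 0.0234), *Fastkd2* (log2FC -0.33 ± 0.080, adjusted *P* = 0.0231) and *Slirp*, which stabilizes mitochondrial messages (log2FC -0.44 ± 0.091, adjusted *P* = 0.0103), were lower at 2 weeks. At 6 weeks the log2FC of *Slirp* was -0.14 ± 0.091 (adjusted *P* = 0.285).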

How the data were processed

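RNA-seq of cardiac septum from 18 mice (6 per group) was analysed. The authors aligned reads with STAR to GRCm38, estimated transcript abundance with Salmon 1.0 (version per the submitters' processing notes, which also name CASAVA 1.8) and summed it to genes. The deposited tables hold estimated counts and TPM per gene. TPM were not scaled further between mice by the authors, as far as the values show. Where reads fit a gene and its copy, Salmon divides them by its model, so such pairs are uncertain.

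Counts (28.4% of values not whole) were rounded. Genes reaching 0.23 CPM in 6 or more mice were scaled by TMM and tested with edgeR 4.0.16 (R 4.3.3) by its quasi-likelihood test in 1 fit of 18 mice, with Benjamini-Hochberg adjustment over all 15054 genes and calls at an adjusted *P* under 0.05. The script was tested on simulated data. CPM use TMM-scaled library sizes, and log2 CPM for the spread between mice use a prior count of 2. Totals of 11522979 to 15501002 counts make 3 counts worth 0.194 to 0.260 CPM, which covers counting error only. Ensembl IDs were paired with symbols, positions and transcripts by GENCODE M21 (GRCm38), and promoter windows came from RefSeq (GRCm38.p6). Genes named are the 13 mitochondrial subunits, the isoform families, up to 3 nuclear subunits per complex, comparison and direction with the smallest adjusted *P*, those with the highest and lowest 6-week value per complex, and likewise up to 3 genes per pathway list. *Ppargc1a* was named beyond this limit. *Atp5b*, *Atp5s* and those of large spread were chosen after their values were seen. The NRF1 motif was shortened by 1 letter after results with a longer form had been seen. Members and lists were chosen with earlier results of these data known. The labels do not say that mice of 1 group are independent litters, so *P* measures the spread between these mice. No pairing of mice by replicate number was detected. Alternatives covered scaling, filter, tool (DESeq2 1.42.0, limma 3.58.1), unit (limma on log2(TPM + 1) and log2(TPM + 0.1)), a Y-linked covariate and each mouse left out. Of the lists given nowhere else, endothelial markers had 3 of 8 lower and 1 higher at 2 weeks, and 3 lower and 2 higher at 6 weeks. Fibroblast markers had 1 of 8 lower at 2 weeks and 2 at 6 weeks, and erythroid genes 1 of 4 lower at 6 weeks. Of all genes 1.93% were lower and 3.09% higher at 2 weeks, and 11.5% and 13.5% at 6 weeks. Brown fat (4 genes) and skeletal muscle (3 genes) had 0 called by edgeR, at an unadjusted *P* under 0.05, with DESeq2 or with limma voom. *Malat1* and *Neat1* were not analysed here.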

Additional observations from a re-analysis of the deposited data

Results flagged for a closer look

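Among 189 groups of 6 mice examined (each named member and ratio in each group), 21 had a highest or lowest mouse farther from the rest than Dixon's 95% critical value allows. Chance alone would give about 1 in 20. *Sdhb* had such a mouse in every group, at 629 CPM in control mouse 2, 387 CPM in mouse 4 at 2 weeks and 302 CPM in mouse 3 at 6 weeks. The same mice gave a low ratio of *Sdha* to *Sdhb* counts (1.83 in mouse 4 at 2 weeks and 1.82 in mouse 3 at 6 weeks) and, in control mouse 2, a complex II share of 4.89% of the counts of nuclear encoded members. Control mouse 3 was low for *Cox6a2* (92.4 CPM), for the ratio of *Cox6a2* to *Cox6a1* (0.715) and for the complex IV share (20.4%). Control mouse 1 was high for *Cox4i2* (7.10 CPM) and low for *Cox6a1* (94.4 CPM), *Ndufb4* (132 CPM), *mt-Atp6* (13981 CPM) and the complex I share (24.6%). At 2 weeks, mouse 1 was high for *Cox6b2* (2.50 CPM), and the *Sdhc* level of mouse 2 (109 CPM) stood apart. At 6 weeks, single mice stood apart for *Uqcr10* (68.6 CPM), *Uqcrc1* (1011 CPM), *Uqcrq* (154 CPM), *mt-Atp6* (13962 CPM) and *mt-Nd6* (957 CPM).

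The 2 irradiated groups differed from each other by the edgeR quasi-likelihood test for 4 members, all lower at 6 weeks: *Sdhd* by a log2 fold change of -0.24, *Uqcrc1* by -0.37, *Atp5g3* by -0.24 and *mt-Co2* by -0.69.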

How the results depend on the processing

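Members called lower at 2 weeks (22) numbered 8 with library size scaling, 2 with log2(TPM + 1) or log2(TPM + 0.1) and 0 with an added limit of 1 on the absolute log2 fold change; 12 to 25 were called with 1 mouse left out. Members called higher (0) numbered 2 with library size and with either TPM unit, 1 with DESeq2, limma voom or centred TPM, and 0 to 1 with 1 mouse left out. At 6 weeks 72 lower became 21 with library size, 1 with either TPM unit, 0 with the fold limit and 62 to 76 with 1 mouse left out, and 3 higher became 5 with either TPM unit, 1 with the fold limit and 2 to 3 with 1 mouse left out. At 6 against 2 weeks 4 lower became 0 with library size, either TPM unit or the fold limit, 12 with DESeq2, 18 with limma voom, 1 with the replicate block and 0 to 12 with 1 mouse left out (0 without 2wk 2, 2wk 4, 2wk 6, 6wk 3 or 6wk 6), and 0 higher became 1 with library size and 2 with either TPM unit. With 1 mouse left out the difference of the mitochondrial and nuclear medians ran from -0.168 to -0.090 at 2 weeks, -0.309 to -0.22 at 6 weeks and -0.161 to -0.082 at 6 against 2 weeks.

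Of the 22, 75 and 4 calls, 12, 63 and 0 held with each of the 12 mice of the 2 compared groups left out in turn. None changed sign in those fits. Relative to the median of all genes, log2 fold changes of named genes changed sign 4 times, all at 2 weeks and none past the threshold: *Atp5j2* (-0.018 with limma voom), *Cox6a2* (0.066 with the replicate block) and *Sdha* (0.040 with log2(TPM + 1), centred or not). No pairing by replicate number was detected: over 18 same-numbered pairs the correlation of deviations ran from -0.083 to 0.106, and 3 of 18 mice correlated best with their own number. These correlations cannot exclude a weak tie between mice of the same number. With the replicate block 15 members were lower at 2 weeks, and 66 lower and 2 higher at 6 weeks. Except where stated the cause was not tested. Adding the counts of copies, centring TPM and leaving out the 7 members of large spread were chosen after seeing the data.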
